A study of Mus musculus with 14 samples.

Results

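Small nucleolar RNAs (snoRNAs) and small Cajal body RNAs (scaRNAs) were followed in mouse blood-forming cells with and without Prmt5, the gene for an arginine methyltransferase. The set held the genes of the fetal liver table with a symbol that began with Snora, Snord or Scarna and a digit, or with Rnu3b, and with counts that summed to 50 or more over the 8 fetal libraries. Of the 45706 genes of the table, 135 had such a symbol and 67 reached the minimum, while 68 did not. The 67 were 33 box H/ACA snoRNAs, 23 box C/D snoRNAs, 7 Cajal body RNAs and 4 copies of U3 (Rnu3b1 to Rnu3b4). Each fetal library had a count above 0 for 66 or 67 of the 67. The entries nearest the minimum were Snord8 with a summed count of 50, Scarna8 with 51, Snord55 with 54 and Snord82 with 57, and just below it Snord35a with 47, Snord45c with 24.5, Snord60 with 22.2 and Snord23 with 22. The GENCODE M21 annotation called 66 of the 67 a snoRNA or scaRNA, and the remaining entry, a second one labelled Snora26, is the 2347-nucleotide noncoding gene Dancr, which holds Snora26 within it. It is called the Dancr entry below.

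SnoRNAs are short nuclear RNAs that pair with ribosomal RNA and direct its chemical modification by the proteins bound to them. Box C/D RNAs guide ribose methylation through the methyltransferase fibrillarin, box H/ACA RNAs guide pseudouridylation through dyskerin, and scaRNAs do the same for the spliceosomal RNAs inside Cajal bodies. A few, among them U3, Snora73 (U17) and Snord118 (U8), act mainly in cutting the ribosomal precursor, and most mammalian snoRNAs are released from the introns of other genes after splicing. PRMT5 methylates Sm proteins and coilin, the marker protein of Cajal bodies.

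RNA from E14.5 fetal liver cells was sequenced from 2 sorted fractions, Ter119neg and Ter119pos, cells without or with Ter119, an antigen that appears as red cell precursors mature. The mice were PRMT5fl/fl with Vav-cre (KO), in which the recombinase is active across blood cells, or PRMT5fl/fl without it (WT), so that floxed alleles were present in both. Each of the 4 groups had 2 libraries from 2 mice. KO mice 1 and 2 and WT mouse 4 gave both fractions, mouse 3 gave Ter119neg WT library A and mouse 5 gave Ter119pos WT library A. The LK libraries, from sorted blood progenitors, came from PRMT5fl/fl mice with Mx1-cre (KO) or without it (WT), 3 libraries each, and both LK groups had received poly(I:C), the interferon inducer that switches Mx1-cre on, 7 days before. The labels do not name the LK mice. Trizol was used for fetal RNA and a spin column for LK RNA.

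A few RNAs are shown, some because their near-identity affects how the counts below can be read, and others to show their boxes (GENCODE M21 sequences, build GRCm38, written as DNA, 5′ to 3′). Rnu3b1 lies at chr11:87443237-87443452 and Rnu3b4 at chr11:87462286-87462500, both on the plus strand in introns of Tex14, and the capital marks the 1 base by which Rnu3b1 is longer.
Rnu3b1: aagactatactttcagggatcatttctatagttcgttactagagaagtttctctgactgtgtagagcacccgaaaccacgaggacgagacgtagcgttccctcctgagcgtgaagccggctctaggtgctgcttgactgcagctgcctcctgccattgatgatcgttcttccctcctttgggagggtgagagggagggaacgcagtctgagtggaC
Rnu3b4: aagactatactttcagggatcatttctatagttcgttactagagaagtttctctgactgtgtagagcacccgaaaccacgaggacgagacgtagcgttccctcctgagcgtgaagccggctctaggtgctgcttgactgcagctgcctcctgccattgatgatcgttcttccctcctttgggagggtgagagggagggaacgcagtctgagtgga
Rnu3b3 has the same sequence as Rnu3b1 and Rnu3b2 the same as Rnu3b4, and the 2 forms have 0 mismatches over their shared 215 bases. Snora73a (chr4:132352775-132352979) and Snora73b (chr4:132352322-132352526) lie on the minus strand in an intron of Rcc1 and inside Snhg3 and are 205 bases each. Capitals mark the 7 positions at which they differ, G3A, G54A, A111G, T164C, G203A, T204A and T205A, counted from the 5′ end with the base of Snora73a first.
Snora73a: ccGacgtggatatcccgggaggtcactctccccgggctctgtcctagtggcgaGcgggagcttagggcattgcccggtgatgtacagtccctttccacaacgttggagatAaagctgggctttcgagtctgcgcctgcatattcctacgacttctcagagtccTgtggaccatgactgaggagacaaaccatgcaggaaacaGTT
Snora73b: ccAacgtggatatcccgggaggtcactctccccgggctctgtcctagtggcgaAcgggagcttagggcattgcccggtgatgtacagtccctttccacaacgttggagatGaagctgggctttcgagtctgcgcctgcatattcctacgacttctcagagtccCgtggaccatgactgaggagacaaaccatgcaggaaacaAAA
Snord15b (chr7:99479563-99479707, minus strand, within an exon of an Rps3 transcript) shows the box C/D pattern, with the C box core TGATGA and the D box CTGA in capitals.
Snord15b: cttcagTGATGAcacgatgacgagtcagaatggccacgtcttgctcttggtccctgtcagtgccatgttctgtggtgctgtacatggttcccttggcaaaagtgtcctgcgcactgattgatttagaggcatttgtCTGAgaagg
Snora78 (chr17:24719676-24719803, minus strand, in an intron of Snhg9) and Scarna13 (chr12:105031075-105031349, minus strand, in an intron of Snhg10), 1 of the 2 Cajal body RNAs with this box at that place, show the terminal ACA box in capitals.
Snora78: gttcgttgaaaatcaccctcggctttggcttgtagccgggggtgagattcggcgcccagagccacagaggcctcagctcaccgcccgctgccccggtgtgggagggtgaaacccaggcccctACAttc
Scarna13: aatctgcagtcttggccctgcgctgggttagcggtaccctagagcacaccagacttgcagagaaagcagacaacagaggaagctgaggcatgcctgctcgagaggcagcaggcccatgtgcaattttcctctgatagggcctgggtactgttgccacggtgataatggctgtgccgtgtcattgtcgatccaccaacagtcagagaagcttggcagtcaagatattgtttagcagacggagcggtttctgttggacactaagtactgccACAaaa

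These letters were searched on the strand of each RNA. ACA at bases 4 to 6 from the end stood in 26 of 32 box H/ACA RNAs (without the Dancr entry), in 0 of 23 box C/D RNAs, in 2 of 7 Cajal body RNAs and in 19.3% of all 1558 snoRNA and scaRNA genes of the annotation in the table. TGATGA within the first 20 bases stood in 19 of 23 box C/D RNAs, in 2 of 7 Cajal body RNAs and in 21.3% of all 1558. CTGA within the last 20 bases stood in 23 of 23 box C/D RNAs, in 4 of 4 U3 copies, in 3 of 32 box H/ACA RNAs, in 3 of 7 Cajal body RNAs and in 34.8% of all 1558. A match describes the letters only.

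The members were chosen by symbol and by a summed fetal count that includes the KO libraries, so their level is no result here. An entry could pass the minimum through its KO counts. This also holds for entries well above it, such as Snora65 with a summed count of 180.5 and Snora43 with 159.1. Snord8, with a summed count of 50, was at 0.56 and 0.604 CPM in Ter119pos KO against 0.0601 and 0.118 in WT. The choice was also made with earlier results of these data known, so differences between groups are not independent of it. Libraries held 19514550 to 30976961 counts. Levels are counts scaled to a common library size after TMM scaling (CPM), so the values of different libraries need not have the same sum. Prmt5 was at 4.26 to 4.51 CPM in Ter119neg KO against 51.8 to 52.3 in WT, at 3.64 to 4.92 against 13.8 to 17.7 in Ter119pos, and at 10.5 to 12.3 against 63.1 to 110 in LK. Erythroid markers summed to 305000 to 441000 CPM in the 4 Ter119pos libraries and 742 to 1650 in the 4 Ter119neg libraries. All 8 macrophage markers were lower in Ter119neg KO than in WT by edgeR, with sums of 28.0 to 32.6 against 111 to 117 CPM, and 6 of 10 erythroid markers were higher and 1 lower, with sums of 1030 to 1650 against 742 to 821 CPM. None of these markers, or of those that follow, was at 0 in a fetal group, and their part in the results was not tested. In Ter119neg KO, 2 of 5 hepatoblast markers were lower (sums of 121 to 245 against 263 to 423 CPM), as were 1 of 5 granulocyte markers (812 to 1110 against 1430 to 1520) and 2 of 5 stem and progenitor markers (270 to 296 against 307 to 328). In Ter119pos KO, 3 of 5 granulocyte markers were lower (22.3 to 66.2 against 78.6 to 148 CPM), 2 of 5 hepatoblast markers (52.9 to 78.6 against 30.2 to 43.1) and 2 of 5 stem and progenitor markers (27.6 to 34.2 against 21.8 to 26.0) were higher. There, 1 of 10 erythroid markers was higher and 3 lower (337000 to 441000 against 305000 to 341000 CPM), and 1 of 8 macrophage markers was higher and 2 lower (35.5 to 47.8 against 33.2 to 54.6). Beside these marker counts, 9.57% of all tested genes were called higher and 9.55% lower in Ter119neg KO, and 24.8% and 29.3% in Ter119pos KO. In bulk RNA, fewer cells of a type and less RNA per cell cannot be told apart.

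Both fetal fractions of the KO had a higher summed level of all 4 classes than their controls, with a larger ratio in Ter119pos. Members took 0.983% and 1.01% of all counts in the Ter119neg KO libraries and 0.541% and 0.731% in WT. In Ter119pos they took 1.02% in each KO library against 0.299% and 0.297% in WT. KO and WT libraries did not overlap in either fraction, and the 4 KO libraries lay close together. On the CPM scale the mean summed level was 1.93 times the WT level in Ter119neg and 6.35 times in Ter119pos. Of 67 members, 63 passed the filter on low counts (Snord82, Snord55, Scarna8 and Snord8 did not). By edgeR's quasi-likelihood test at an adjusted p under 0.05, 39 were higher and 2 lower in Ter119neg KO, against 9.57% of all tested genes called higher and 9.55% lower (19.1% in either direction). The median log2 fold change was 1.09, against 0.01 over all genes. In Ter119pos KO 53 of 63 were higher and 0 lower, against 24.8% and 29.3% of all genes (54.2% in either direction), with a median of 2.48 against -0.04. Of all 67 members, tested or not, the KO and WT libraries did not overlap for 54 higher and 2 lower in Ter119neg, against 31.6% and 31.1% of tested genes, and for 62 higher and 0 lower in Ter119pos, against 35.8% and 39.7%. These counts include entries, not only those near the count minimum, that could have reached it through their KO counts. Every tested member had a log2 fold change above 0 in Ter119pos, down to 0.25 for Snord49a, which was not called. The 39 RNAs higher in Ter119neg were all higher in Ter119pos, 14 were called higher in Ter119pos and not in Ter119neg, and 8 in neither; the remaining 2 were Rnu3b2 and Rnu3b4.

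The Ter119neg count moved most without 1 library. Without Ter119neg WT library A, 20 members were higher and 2 lower. Without KO library A 29 were higher and 2 lower, without KO library B 31 and 2, and without WT library B 38 and 2. In each of these fits 1 group has a single library, whose spread is taken from the remaining groups. Within Ter119neg WT, 59 of 67 members were higher in library B than in library A, where 48.1% of all tested genes were, and the median ratio was 1.49. Library B also held 0.274% of its counts in 18S ribosomal RNA, against 0.0129% to 0.0467% in the other fetal libraries; the part of that in the difference was not tested. With library totals in place of TMM scaling, 31 were higher and 2 lower in Ter119neg, and 47 higher and 0 lower in Ter119pos. That scaling moved the median of all genes to -0.3 in Ter119neg and -0.93 in Ter119pos.

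**Figure D1:**
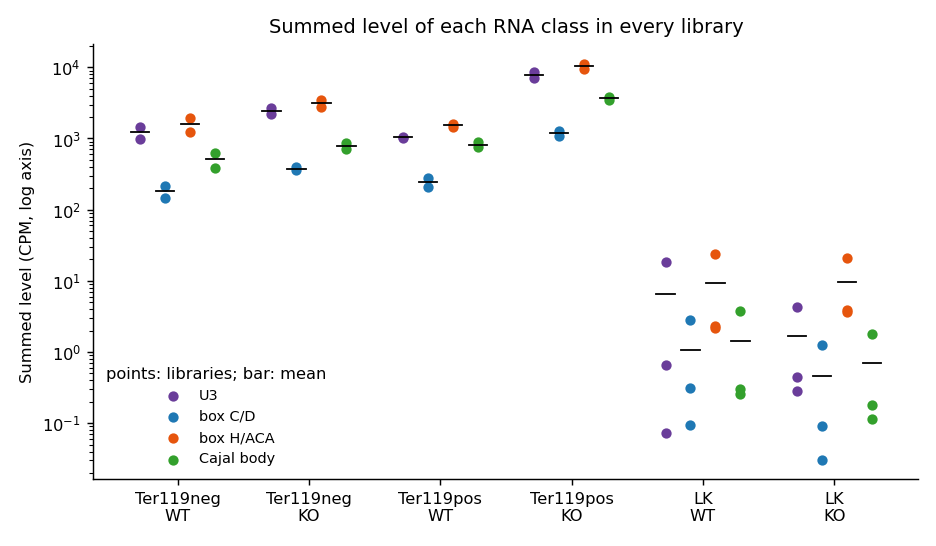
Summed CPM (log axis) of the 4 RNA classes in each library, by group, with 1 point per library and a bar at the group mean. In both fetal fractions every KO library lies above every WT library for each class, and the LK libraries lie far lower, with 1 library per LK group above the other 2.

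U3, which guides the first cuts of the ribosomal precursor toward 18S RNA, is encoded by copies that a read cannot always separate. Rnu3b1 and Rnu3b3, whose counts were identical in every library, were each at 1110 and 1360 CPM in Ter119neg KO, 472 and 585 in Ter119neg WT, 2620 and 2910 in Ter119pos KO, and 177 and 213 in Ter119pos WT. Every KO library was above every WT library. The log2 fold change KO against WT was 1.22 (SE 0.183, adjusted p = 0.000733) in Ter119neg and 3.82 (SE 0.203, adjusted p = 6.65e-08) in Ter119pos. Rnu3b2 and Rnu3b4, 1 base shorter, were each at 2.83 and 0.00585 CPM in Ter119neg KO, 20.4 and 138.0 in Ter119neg WT, 868 and 1390 in Ter119pos KO, and 336 and 308 in Ter119pos WT. They were lower in Ter119neg KO by -5.81 (SE 1.01, adjusted p = 0.00195) and at 1.81 (SE 0.786, adjusted p = 0.0695) in Ter119pos, where the groups did not overlap but the test was not passed.

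The 2 forms thus went opposite ways in Ter119neg although their sequences differ by 1 terminal base, and the shorter form took 0.000919% and 1.59e-06% of counts in the 2 KO libraries. The table held 13 U3 entries in all, among them Rnu3a and further copies outside the symbol rule. Summed into 1, they were at 6270 and 7700 CPM in Ter119neg KO, 2780 and 4060 in Ter119neg WT, 19900 and 24300 in Ter119pos KO, and 3390 and 3140 in Ter119pos WT. Every KO library was above every WT library, with log2 fold changes of 1.03 (SE 0.236, adjusted p = 0.0098) and 2.76 (SE 0.25, adjusted p = 1.64e-06). The values of Rnu3b2 and Rnu3b4 are those of entries whose reads also fit other copies.

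**Figure D2:**
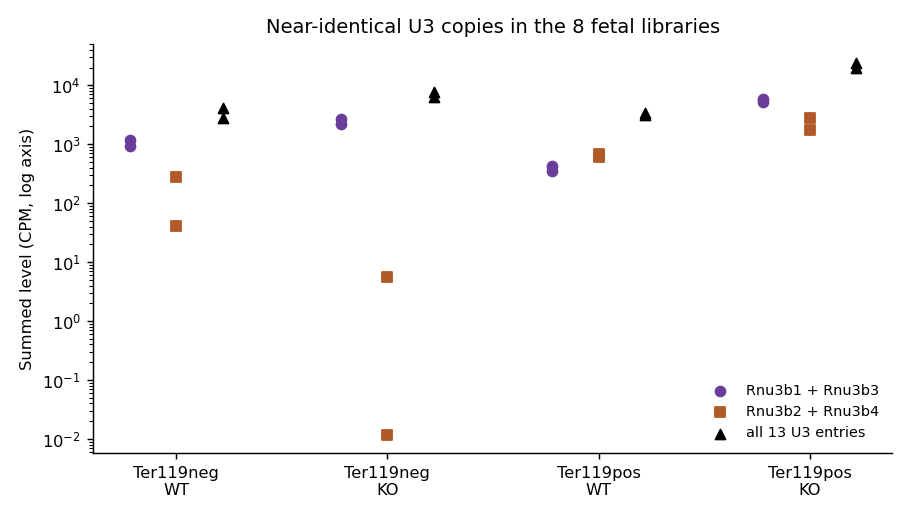
Summed CPM (log axis) of the U3 entries in the 8 fetal libraries, 1 point per library, for Rnu3b1 with Rnu3b3, Rnu3b2 with Rnu3b4, and all 13 U3 entries together. The shorter form falls to 5.65 and 0.0117 CPM in the Ter119neg KO libraries while the sum of all entries is higher in KO in both fractions.

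Snora73a and Snora73b, which act in maturation of 18S RNA, were the single entries with the highest level per length among the members, at 10600 and 5930 CPM per kb over the fetal libraries. Rnu3b1 and Rnu3b3, whose reads are divided among identical copies, were each at 5460. All 13 U3 entries together had group means of 3260 to 22100 CPM, against 1230 to 8480 for the Snora73 pair. Snora73a was at 1420 and 1810 CPM in Ter119neg KO, 665 and 1100 in Ter119neg WT, 5080 and 5640 in Ter119pos KO, and 831 and 791 in Ter119pos WT. It rose by 0.87 on the log2 scale (SE 0.231, adjusted p = 0.0207) in Ter119neg and by 2.73 (SE 0.244, adjusted p = 1.65e-06) in Ter119pos, with no overlap of KO and WT in either fraction. Snora73b rose by 1.12 (SE 0.198, adjusted p = 0.00217) and 2.90 (SE 0.21, adjusted p = 3.8e-07). Reads from stretches without 1 of the 7 differing positions fit both copies, and their sum was 1.94 and 6.89 times the WT level. Snora74a (U19) was at 251 and 331 against 124 and 192 CPM in Ter119neg and 833 and 1120 against 194 and 155 in Ter119pos, with log2 fold changes of 0.88 (adjusted p = 0.0187) and 2.49 (adjusted p = 3.03e-06).

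Snord118 (U8), needed for the large-subunit ribosomal RNAs, changed in 1 fraction. Its levels were 8.77 and 6.28 CPM in Ter119neg KO and 5.23 and 7.82 in WT, which overlap, and the log2 fold change was 0.21 (SE 0.215, adjusted p = 0.545). In Ter119pos it was at 34.2 and 31.2 against 12.6 and 8.89 CPM, 1.61 higher on the log2 scale (SE 0.22, adjusted p = 5.17e-05). The difference between the fractions was 1.40 (SE 0.307, adjusted p = 0.00321), though with library totals it was 0.80 (adjusted p = 0.0597). Snord22 (U22), which acts in 18S maturation, was at 54.7 and 54.1 against 23.2 and 35.6 CPM in Ter119neg and 162 and 181 against 79.5 and 45.5 in Ter119pos, with log2 fold changes of 0.89 (adjusted p = 0.0183) and 1.46 (adjusted p = 0.000185). Snord13 (U13), which guides base acetylation in 18S RNA, was at 5.36 and 3.22 against 1.65 and 3.03 CPM in Ter119neg and 16.0 and 15.4 against 3.07 and 4.3 in Ter119pos. It rose by 2.09 (SE 0.302, adjusted p = 7.99e-05) in Ter119pos, and its 0.89 in Ter119neg was at an adjusted p of 0.0492. The Ter119neg call was lost in edgeR fits with RLE in place of TMM scaling and without abundant short RNAs in the library size. It was also lost with only the compared groups and with the replicate letter as a block (adjusted p of 0.0545 to 0.0841 in these fits).

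The box C/D class as a whole was at 357 and 394 CPM in Ter119neg KO, 147 and 217 in WT, 1080 and 1290 in Ter119pos KO, and 280 and 210 in WT. Its means were 2.07 and 4.82 times WT. Of 20 tested box C/D RNAs, 6 were higher in Ter119neg KO and 13 in Ter119pos KO, with medians of 0.92 and 1.58 on the log2 scale, and 0 were lower in either. The shares of all genes called higher were 9.57% and 24.8%. Snord17 was the most abundant, at 208 and 261 against 83.8 and 122.0 CPM in Ter119neg and 671 and 859 against 105 and 91.0 in Ter119pos. It rose by 1.19 (SE 0.2, adjusted p = 0.00156) and 2.96 (SE 0.213, adjusted p = 3.66e-07), the highest log2 fold change of the class in Ter119pos. Snord15a and Snord15b, both in Rps3, rose by 0.96 (adjusted p = 0.00755) and 0.83 (adjusted p = 0.00489) in Ter119neg and by 2.22 (adjusted p = 4.25e-06) and 1.38 (adjusted p = 2.16e-05) in Ter119pos.

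The 7 box C/D RNAs not called in Ter119pos, Snord14c, Snord14e, Snord47, Snord49a, Snord49b, Snord65 and Snord83b, were at 3.22 CPM or less in every fetal library. Their log2 fold changes lay between 0.25 and 1.55. They are 72 to 94 bases long. Other box C/D RNAs at these levels were called, among them Snord89, at 1.12 and 1.04 CPM in Ter119pos KO against 0.301 and 0.0588 in WT, with a log2 fold change of 2.57 (SE 0.613, adjusted p = 0.00341). Snord89, with a summed count of 113, could have reached the count minimum through its KO counts, so its call is not independent of the choice.

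The box H/ACA class was at 2760 and 3450 CPM in Ter119neg KO, 1240 and 1950 in WT, 9610 and 11200 in Ter119pos KO, and 1580 and 1470 in WT, with means 1.94 and 6.84 times WT. Of 33 tested RNAs, 28 were higher in Ter119neg KO and 32 in Ter119pos KO, against 9.57% and 24.8% of all genes. Their medians were 1.15 and 2.60 on the log2 scale, and 0 were lower. KO and WT libraries did not overlap for any of the 33 in either fraction. Snora78 was at 89.2 and 102.0 CPM against 34.2 and 56.3 in Ter119neg and at 291 and 389 against 36.8 and 27.7 in Ter119pos. Its 3.40 (SE 0.243, adjusted p = 3.6e-07) in Ter119pos was the highest log2 fold change of the class, against 1.08 (SE 0.222, adjusted p = 0.00535) in Ter119neg. Snora57 was at 21 and 21.7 against 7.31 and 10.1 CPM in Ter119neg and at 48.8 and 58.7 against 5.89 and 5.71 in Ter119pos, with log2 fold changes of 1.29 (adjusted p = 0.000133) and 3.21 (adjusted p = 7.27e-08).

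Snora64, at 18.1 and 17.2 against 5.3 and 9.78 CPM in Ter119neg and 57.8 and 67.4 against 7.18 and 7.86 in Ter119pos, rose by 1.24 (adjusted p = 0.00159) and 3.05 (adjusted p = 4.86e-07). Snora81 rose by 1.19 (adjusted p = 0.00313) and 3.17 (adjusted p = 6.09e-07). Snora23, Snora44, Snora52, Snora61 and Snora21 rose in both fractions, by 1.10 to 1.36 in Ter119neg and 2.21 to 2.90 in Ter119pos. Snora30 was the only member of the class not called in Ter119pos, at 1.19 (SE 0.513, adjusted p = 0.0688) and at most 1.47 CPM. The Dancr entry rose by 0.76 (adjusted p = 0.00947) and 3.29 (adjusted p = 9.43e-07). It is a host transcript and not a snoRNA.

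The 7 Cajal body RNAs summed to 708 and 871 CPM in Ter119neg KO, 382 and 632 in WT, 3440 and 3850 in Ter119pos KO, and 891 and 751 in WT, and their means were 1.56 and 4.43 times WT. Of 6 tested, 3 were higher in Ter119neg KO and 6 in Ter119pos KO, against 9.57% and 24.8% of all genes, with medians of 0.81 and 2.71. Scarna10 (U85), which carries both kinds of boxes, was at 304 and 366 CPM in Ter119neg KO, 170 and 315 in WT, 1870 and 2150 in Ter119pos KO, and 596 and 486 in WT. The groups overlapped in Ter119neg, where the log2 fold change was 0.47 (SE 0.245, adjusted p = 0.211), and did not in Ter119pos, where it was 1.90 (SE 0.252, adjusted p = 4.09e-05). Scarna2, the longest member besides the Dancr entry at 414 bases, gave 0.46 (SE 0.189, adjusted p = 0.117) and 2.55 (SE 0.202, adjusted p = 6.69e-07). Scarna6 and Scarna13 rose in both fractions, by 1.15 (adjusted p = 0.00121) and 0.83 (adjusted p = 0.0125) in Ter119neg and by 2.92 (adjusted p = 2.67e-07) and 2.43 (adjusted p = 1.17e-06) in Ter119pos. Scarna3b, at 0.77 and 0.863 CPM in Ter119pos KO against 0.0601 and 0 in WT, had a log2 fold change of 4.58 (SE 0.873), with 0 or few counts behind the WT values. With a summed count of 84, Scarna3b could have reached the count minimum through its KO counts, so this value is not independent of the choice.

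Of the 27 members named by the rule and called in Ter119neg, 11 lost the call when 1 library was left out, with adjusted p of 0.0538 to 0.416. They were Scarna13, Scarna3a, Snora28, Snora70, Snora73a, Snora74a, Snord13, Snord15a, Snord15b, Snord22 and the Dancr entry, and the libraries were Ter119neg KO A, KO B and WT A. With library totals, Scarna13, Snord13 and the Dancr entry were not called in Ter119neg (adjusted p of 0.0562 to 0.159). In Ter119pos 0 of 29 lost it, with a library left out or with library totals.

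Whether the effect of deletion differed between fractions was tested as an interaction, Ter119pos minus Ter119neg. It was called positive for 39 of 63 members and negative for 0, with 58 values above 0 and 5 below, against 19.3% and 22.4% of all genes (41.7% in either direction), with a median of 1.43 on the log2 scale against -0.005 over all genes. By class these were 4 of 20 box C/D, 25 of 33 box H/ACA, 6 of 6 Cajal body and 4 of 4 U3 entries. Among the U3 entries, Rnu3b1 and Rnu3b3 share identical counts, as do Rnu3b2 and Rnu3b4. For Rnu3b2 and Rnu3b4 the positive value came from -5.81 in Ter119neg and 1.81 in Ter119pos, so the effect was not larger in Ter119pos. Snora57 had 1.92 (SE 0.227, adjusted p = 5.89e-05), Snora78 2.32 (SE 0.318, adjusted p = 0.000144), Snora23 1.80 (SE 0.262, adjusted p = 0.000217), Scarna2 2.09 (SE 0.272, adjusted p = 0.000101) and all U3 entries together 1.73 (SE 0.333, adjusted p = 0.00132). With library totals, 27 were called positive and 0 negative. The KO effects share no library between fractions, but mice 1, 2 and 4 gave libraries to both, and with the mouse as a block 41 were called positive and 1 negative. In that fit the WT side of the comparison rests on mouse 4 alone.

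**Figure D3:**
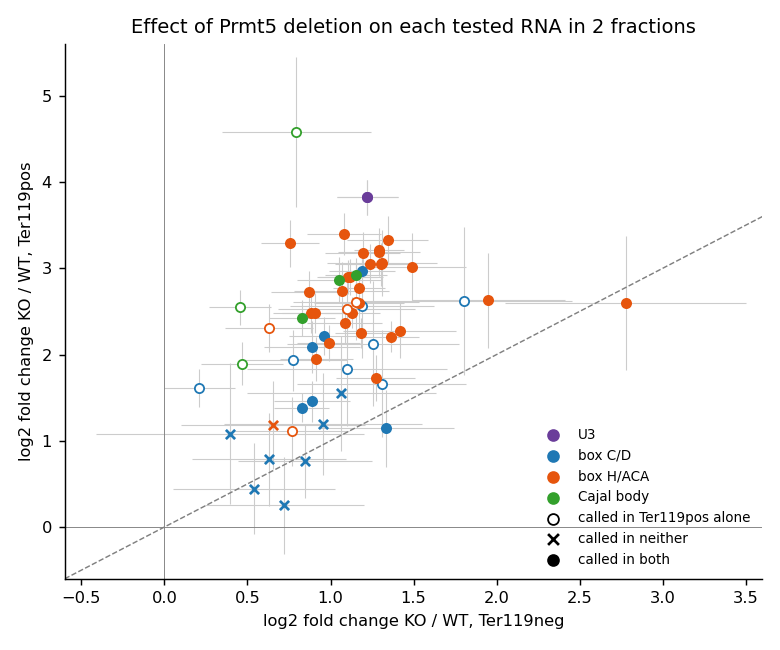
Log2 fold change KO against WT in Ter119neg (horizontal axis) and Ter119pos (vertical axis) for 61 tested members, with standard errors as grey bars, colours for the classes and a dashed line of equal effect. Rnu3b2 and Rnu3b4, at -5.81 and 1.81, are outside the plotted range; most points lie above the line, and the 8 crosses, called in neither fraction, are 7 box C/D RNAs and Snora30.

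Between fractions, the direction depended on the scaling. In WT, 12 members were higher and 6 lower in Ter119pos than in Ter119neg by edgeR, against 35.9% and 40.4% of all genes (76.3% in either direction), and the sum of all members was 1.03 times as high. In KO, 48 were higher and 0 lower, against 30.3% and 32.3% of all genes (62.6% in either direction), and the sum was 3.41 times as high. With library totals these became 0 higher and 33 lower in WT, and 5 higher and 11 lower in KO, while the median of all genes moved to -1.35 and -1.86. As shares of all counts the members took 0.541% and 0.731% in Ter119neg WT against 0.299% and 0.297% in Ter119pos WT, and 0.983% and 1.01% against 1.02% and 1.02% in KO. Relative to other genes after TMM scaling, Scarna10 was 1.16 higher (adjusted p = 0.000976) and Snord22 1.09 higher (adjusted p = 0.000997) in Ter119pos WT, and Scarna2 was at -0.64 (adjusted p = 0.00919). The WT counts also moved with the mouse as a block (7 higher, 14 lower). Mice 3 and 5 gave a single fraction, so in that fit the WT fraction effect rests on mouse 4 alone. Of the named WT calls, 8 were lost with DESeq2, summed identical copies, no low count filter, only the compared groups or the mouse block. They were Rnu3b2, Rnu3b4, Scarna3b, Snora21, Snora28, Snora30, Snora61 and Snord118. Without Ter119neg WT library A, or without Ter119pos WT library A, fewer members were higher and more were lower, with a single library left in the group. Of the 17 named calls in WT, 8 were lost when 1 library was left out, Scarna2 among them (adjusted p of 0.0544 to 0.258).

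LK libraries held very few of these RNAs. Of the 67, 45 had any count and 6 a summed LK count of 50 or more, and together they took 0.000297% to 0.00309% of counts. The tables differ in tissue, RNA kit and depletion of ribosomal RNA as named in the labels, which cannot be told apart. Taken as single entries, Snora73b had the highest count of the members besides the Dancr entry in each LK library, with 51.8, 110.8 and 31.7 counts in KO and 38.5, 125.0 and 29.8 in WT. Rnu3b1 and Rnu3b3 each had 7.2, 32.0 and 5.0 in KO and 12.2, 114.8 and 0 in WT. All 13 U3 entries together, among which reads are divided, had 32, 173 and 22 in KO and 54, 544 and 7 in WT. In both groups library B was highest, and LK WT B and KO B also held 18% and 23.4% of their counts in 18S ribosomal RNA, against 0.0394% to 0.179% in the other 4; the part of that in their levels was not tested. Of 6 tested members 0 were called by edgeR, 0 had an unadjusted p under 0.05, and 0 were called by DESeq2, against 1.82% of all genes called in either direction (1.15% higher, 0.661% lower). The log2 fold changes ran from -2.01 (SE 1.85) for Rnu3b1 to 0.97 (SE 1.21) for the Dancr entry, so changes of the size seen in Ter119neg were not detectable here. Without both B libraries 3 members were tested and 0 called, and with the letter as a block 0 were called and 1 had an unadjusted p under 0.05.

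Members were grouped by length, without the Dancr entry. Their levels are a description only, since members were chosen by count. The 18 RNAs of 70 to 110 bases had a median of 8.57 CPM per kb, the 34 of 121 to 149 bases 49.3, and the 14 of 178 to 414 bases 1780. All 18 of the shortest group are box C/D RNAs, so class and length cannot be told apart there. In Ter119pos, 8 of 15 tested RNAs in the shortest group were higher in KO, 32 of 33 in the middle and 12 of 14 in the longest, with median log2 fold changes of 1.55, 2.53 and 2.81. In Ter119neg the counts were 2 of 15, 26 of 33 and 10 of 14, with medians of 0.95, 1.13 and 0.99. The longest group holds the 4 U3 entries, in which Rnu3b1 and Rnu3b3 share identical counts, as do Rnu3b2 and Rnu3b4. Rnu3b2 and Rnu3b4 were called lower in Ter119neg. Over all genes, 24.8% were called higher in Ter119pos and 9.57% in Ter119neg. Across the 62 tested members with a length, Spearman's rho between length and log2 fold change, as a description of members that share libraries, was 0.449 in Ter119pos and -0.113 in Ter119neg.

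**Figure D4:**
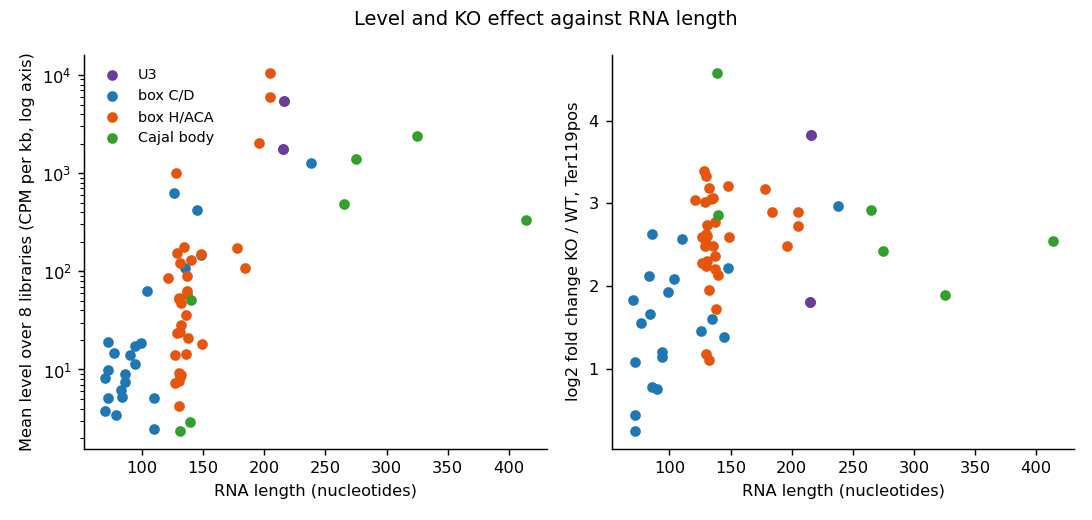
Mean level over the 8 fetal libraries in CPM per kb (log axis, left) and log2 fold change KO against WT in Ter119pos (right) against RNA length in nucleotides, 1 point per member, coloured by class, without the Dancr entry. The 18 members of 70 to 110 nucleotides are box C/D RNAs with a median of 8.57 CPM per kb, and the longest 14 have a median of 1780 CPM per kb; levels describe members chosen by count.

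Most members lie inside another gene of the same strand, and the median change of these hosts was smaller than that of the RNAs within them. The annotation placed 59 of 67 in a host, 31 in introns, 25 within an exon of at least 1 annotated transcript and 3 partly in an exon, over 47 distinct hosts, and 19 members lay in ribosomal protein genes. Counts of a member within an exon and of its host may share reads. Where several genes enclosed a member, the one with the highest summed fetal count was taken as its host, so Snora73a and Snora73b were set against Rcc1 and not Snhg3. For the 47 tested members whose host was also tested and was not itself a member, 38 hosts were compared. In Ter119neg 5 hosts were higher and 3 lower, against 9.57% and 9.55% of all genes, with a median log2 fold change of 0.24 against 1.10 for the members, and 43 of 47 members were above their host. In Ter119pos 24 hosts were higher and 6 lower, against 24.8% and 29.3% of all genes, with a median of 1.32 against 2.48, and 36 of 47 members were above their host.

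Some hosts went the opposite way. Rcc1, a chromatin-bound exchange factor and host of Snora73a and Snora73b, was lower in KO by -0.34 (SE 0.104, adjusted p = 0.0418) in Ter119neg and -0.92 (SE 0.114, adjusted p = 2.26e-05) in Ter119pos, whereas the overlapping noncoding host Snhg3 was at 46.6 to 52.3 against 12.8 to 17.2 CPM in Ter119neg and 36.0 to 40.9 against 5.45 to 8.33 in Ter119pos. Snhg3 rose by 1.71 (adjusted p = 4.35e-05) and 2.47 (adjusted p = 6.99e-07). In Ter119neg that was above Snora73a at 0.87 and Snora73b at 1.12, and in Ter119pos below their 2.73 and 2.90. The counts of members above their host use Rcc1 for both. Ncapd2, a condensin subunit and host of Scarna10, was lower by -1.50 (SE 0.138, adjusted p = 2.04e-06) in Ter119pos, and Ipo7, a nuclear import receptor and host of Snora23, by -0.61 (SE 0.125, adjusted p = 0.00119). Every compared host that encodes a ribosomal protein was called higher in Ter119pos KO, from Rpl3 at 1.23 to Rpl39 at 2.78, among them Rps2 (Snora64) by 1.96 (adjusted p = 1.36e-06), Rplp2 (Snora52) by 2.01 (adjusted p = 1.04e-06) and Rps3 by 2.03 (adjusted p = 9.59e-07). Snord49a, Snord49b and Snord65 lie in 2410006H16Rik, which rose by 3.28 (SE 0.189, adjusted p = 1.17e-07) in Ter119pos, while the 3 RNAs were at 0.25, 0.45 and 1.08 and were not called.

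**Figure D5:**
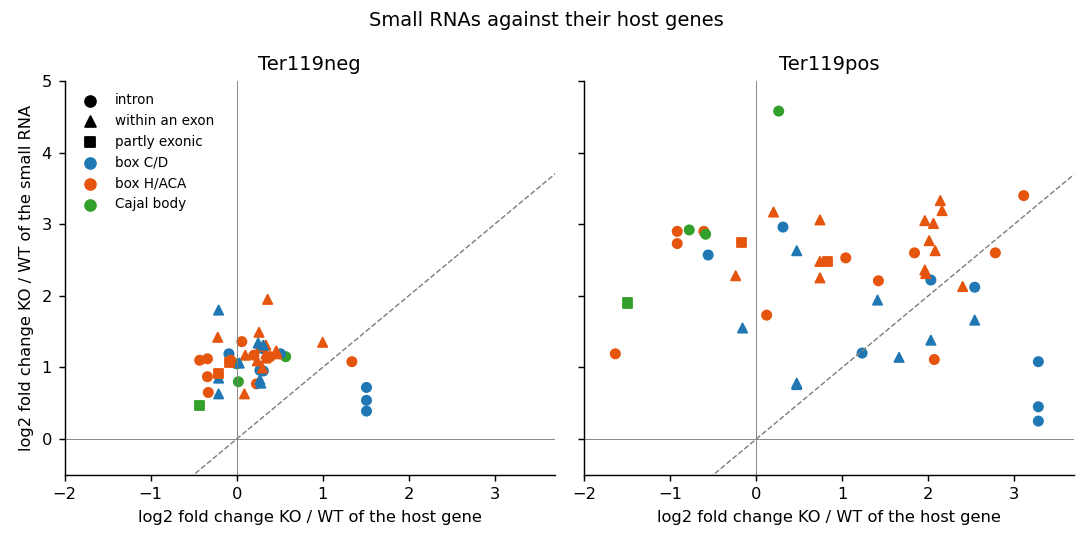
Log2 fold change KO against WT of each tested member (vertical axis) against that of its host gene (horizontal axis) in Ter119neg (left) and Ter119pos (right), coloured by class, with symbols for the position in the host and a dashed line of equal change. In Ter119neg 43 of 47 and in Ter119pos 36 of 47 members lie above the line, and the 3 circles at the right edge are the RNAs in 2410006H16Rik.

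Calls among genes for the proteins of these particles are read against the 19.1% of all genes called in either direction in Ter119neg and the 54.2% in Ter119pos. Of 5 C/D particle proteins, 0 were higher and 1 lower in Ter119neg KO (Nop56, a core C/D protein, at -0.65, adjusted p = 0.00322), and 2 higher and 2 lower in Ter119pos. There Rrp9, the U3-specific protein, rose by 1.00 (adjusted p = 0.000247) and Nhp2l1, the box-binding 15.5K protein, by 0.48 (adjusted p = 0.00589), while Nop56 was at -0.75 (adjusted p = 0.00028) and Nop58 at -0.32 (adjusted p = 0.0379). Of 4 H/ACA proteins 0 passed the test in Ter119neg, and in Ter119pos Nop10 and Nhp2 rose by 1.77 (adjusted p = 3.16e-06) and 1.53 (adjusted p = 4.3e-06), while dyskerin (Dkc1) was at -0.65 (adjusted p = 0.000565) and Gar1 at -0.74 (adjusted p = 0.0232). Of 12 particle assembly factors, 0 were higher and 1 lower in Ter119neg (Pih1d1, at -0.65, adjusted p = 0.00248), and 4 higher and 1 lower in Ter119pos, with Znhit3 at 1.25 (adjusted p = 1.1e-05). Of 14 tested genes for Cajal body and cap proteins, 2 were higher and 1 lower in Ter119neg and 4 higher and 4 lower in Ter119pos. Parn, the nuclease that trims H/ACA RNA tails, had the smallest p of them in Ter119pos at 2.24 (SE 0.194, adjusted p = 1.31e-06), and Papd5, the polymerase that adds those tails, was at -0.96 (adjusted p = 3.79e-05). Wrap53, which carries RNAs to Cajal bodies, was 0.38 higher in Ter119neg (adjusted p = 0.0413).

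Of 14 tested noncoding snoRNA hosts, 8 were higher and 0 lower in Ter119neg KO and 11 higher and 1 lower in Ter119pos, with medians of 0.68 and 1.47. Over all genes, 9.57% were higher and 9.55% lower in Ter119neg, and 24.8% and 29.3% in Ter119pos. Snhg8 rose by 1.00 (adjusted p = 0.000239) and 2.14 (adjusted p = 2.43e-07) and the separate entry labelled Dancr by 0.87 (adjusted p = 0.000617) and 2.53 (adjusted p = 2.49e-07). In LK 0 of 11 were called by edgeR; Snhg4 had the smallest p, at 1.60 (SE 0.497, adjusted p = 0.162).

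Other short structured RNAs were higher in the same libraries. The share of counts in 7SL, 7SK, RMRP and RPPH1 was 27.6% and 31.4% in Ter119neg KO, 16.7% and 23.3% in Ter119neg WT, 35.9% and 34.6% in Ter119pos KO, and 6.08% and 6.2% in Ter119pos WT. Of 18 tested RNAs of a list that also held snRNAs, Y RNAs, vault RNA and telomerase RNA, 12 were higher in Ter119neg KO and 18 in Ter119pos KO, with medians of 1.09 and 3.40. Rny1, a Y RNA, rose by 1.59 (adjusted p = 0.000243) and 4.95 (adjusted p = 6.65e-08) and Rny3 by 1.72 (adjusted p = 0.000118) and 4.73 (adjusted p = 9.3e-08). Of 47 tested snRNA genes 42 and 47 were higher. Of 87 tested snoRNA and scaRNA genes outside the symbol rule, 54 were higher and 3 lower in Ter119neg, and 79 higher and 1 lower in Ter119pos. The medians were 0.95 and 2.40, near those of the members. For all the counts of this paragraph, the shares of all genes called were 9.57% higher and 9.55% lower in Ter119neg, and 24.8% and 29.3% in Ter119pos. With the members, 7SL, 7SK, RMRP, RPPH1 and ribosomal RNA left out of the library size, the summed level of all members was 1.89 times WT in Ter119neg and 6.85 times in Ter119pos. With them it was 1.93 and 6.35 times. Any other part of the abundance of these short RNAs in the results was not tested.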

How the data were processed

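Gene expression was measured by stranded total RNA sequencing of 14 libraries, with Ribo-Zero depletion named for the fetal libraries, per the labels' protocols. Per the submitters' processing notes, STAR 2.5.3 was the aligner and RSEM the quantifier. An RSEM version or annotation release was not given in the sources used here. Values deposited by the authors are RSEM expected counts per gene, which divide reads among copies. Rounded to whole numbers, they were fitted by the quasi-likelihood F test of edgeR 4.0.16 under R 4.3.3 with TMM scaling and filterByExpr: 8 fetal libraries in 1 model of 4 groups (15566 genes) and 6 LK libraries in another (13771 genes). Adjustment was by the Benjamini-Hochberg method over all tested genes, with calls under 0.05. The SE is the absolute log2 fold change over the root of F. Fetal libraries of a group come from separate mice; LK mice are not named, so there p-values measure only the spread between those libraries, which may be technical. Libraries held 19514550 to 30976961 counts. GENCODE M21 (GRCm38) gave positions, hosts, lengths and sequences.

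The members and gene lists were chosen with earlier results of these data known. Named were the 6 most abundant members per class, up to 8 called members per direction and comparison by smallest p, their hosts, and up to 4 genes per list. LK libraries of the same letter deviated together (r of 0.604, 0.719 and 0.73), so the letter block is given beside the LK result; fetal letters did not deviate together. Mice 1, 2 and 4 gave both fractions, per the labels, so a mouse block is given where it moved a fraction result. Alternatives used limma 3.58.1, DESeq2 1.42.0, other scalings, filters, blocks and left-out libraries. The fits were tested on simulated data. Of 45706 genes, 45143 matched M21 by identifier.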

Additional observations from a re-analysis of the deposited data

Results flagged for a closer look

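The effect of Prmt5 deletion differed between fractions by the interaction test of edgeR for 39 members, each with a positive difference, Ter119pos minus Ter119neg. The values of the named members among them follow as log2 differences. In the U3 entries the difference was 2.6 for Rnu3b1, 2.6 for Rnu3b3, 7.62 for Rnu3b2 and 7.62 for Rnu3b4. The last 2 values rest on entries that were nearly empty in Ter119neg KO, with an effect of -5.81 there and 1.81 in Ter119pos, so the effect was not larger in Ter119pos. Rnu3b1 and Rnu3b3 share identical counts, as do Rnu3b2 and Rnu3b4. All U3 entries together gave 1.73. Among box C/D RNAs it was 1.78 for Snord17, 1.40 for Snord118, 1.25 for Snord15a and 1.20 for Snord13. Among box H/ACA RNAs it was 2.53 for the Dancr entry labelled Snora26, 2.32 for Snora78, 1.98 for Snora81, 1.92 for Snora57, 1.86 for Snora73a, 1.82 for Snora64, 1.80 for Snora23, 1.78 for Snora73b, 1.60 for Snora52, 1.60 for Snora74a, 1.35 for Snora44, 1.28 for Snora70, 1.06 for Snora61 and 0.84 for Snora21. Among Cajal body RNAs it was 3.79 for Scarna3b, 2.09 for Scarna2, 1.81 for Scarna3a, 1.77 for Scarna6, 1.60 for Scarna13 and 1.43 for Scarna10. Scarna3b, with a summed count of 84, could have reached the count minimum through its KO counts. DESeq2 did not call the difference of Scarna3b (adjusted p = 0.065). Scarna3b, Snora21 and Snord13 lost the call when 1 library was left out (adjusted p of 0.0545 to 0.137), and with library totals Snora21, Snora61, Snora70, Snord118, Snord13 and Snord15a did (0.0597 to 0.529). Groups had 2 or 3 libraries, so no library was examined as an outlier within its group.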

How the results depend on the processing

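The 131 single-member results, all of them calls of named members, were recomputed under up to 19 alternatives. That gave 1657 values with the same direction and side of the threshold, 89 that lost the call and 20 that changed sign. The causes were not tested. Members that were not named and results that were not called are not in these numbers. Leaving out 1 library gave 22 to 40 calls in Ter119neg against 41 (22 without Ter119neg WT library A), 47 to 51 in Ter119pos against 53, 14 to 22 for the fractions in WT against 18, 45 to 52 in KO against 48, 34 to 42 for the interaction against 39 and 0 to 0 in LK. Library totals without TMM factors, an alternative added after the data were seen, gave 33 calls for the fractions in WT and 16 in KO, and all 20 sign changes. In KO these were Rnu3b1 and Rnu3b3 at -0.58, Scarna2 at -0.27, Snora21 at -0.17, Snora23 at -0.13, Snora44 at -0.25, Snora52 at -0.37, Snora57 at -0.42, Snora61 at -0.2, Snora73a at -0.01, Snord15a at -0.12, Snord15b at -0.28, Snord17 at -0.04 and Snord22 at -0.1. In WT they were Snora21 at -0.44, Snora61 at -0.67, Snora70 at -0.2, Snord118 at -0.43, Snord15b at -0.23 and Snord22 at -0.07. Without the abundant short RNAs in the library size, the summed box H/ACA level in Ter119pos had a log2 ratio of 2.87 against 2.77. A replicate block by letter gave 41 calls in Ter119neg, 52 in Ter119pos, 20 and 48 for the fractions in WT and KO, 39 for the interaction and 0 in LK. Between KO and WT fetal libraries that share a letter, r was 0.00472 in Ter119neg and -0.0288 in Ter119pos, mouse 1 had 0.155 and mouse 4 -0.0678. With 2 libraries per group, A and B deviate as mirror images, so the WT A libraries of mice 3 and 5 also had -0.0678. That value cannot show what the fractions of mouse 4 share. A block by mouse, in which the WT fraction effect rests on mouse 4 alone, gave 21 and 52 calls for the fractions and 42 for the interaction. Summing the U3 entries was also added after the data were seen, as was leaving out both LK B libraries. With 2 libraries per fetal group, and levels under 1 CPM for many box C/D RNAs, small changes were not detectable.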
